A study of Mus musculus with 12 samples.

Results

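The comparison described here is what an antibody against PD1 adds to the kinase inhibitor regorafenib in a mouse squamous cell carcinoma. Its members are 6 of the 12 RNA libraries of this tumour model, chosen by their treatment labels: 3 from tumours given regorafenib together with anti-PD1, called the combination, and 3 from tumours given regorafenib alone. The other 6 libraries, 3 from anti-PD1 alone and 3 from vehicle, were normalised with them and served to set the same addition without regorafenib beside it. In all 4 groups the tumours came from Sq-1979, a line of squamous cell carcinoma of the mouse head and neck, placed under the skin of C3H/HeN males, aged 6 weeks at injection, in Matrigel. Treatment began on day 20, with regorafenib at 5 mg/kg per day where it was given. The labels name oral gavage for the treatments as a whole, give no clone, dose or schedule for the antibody and no day of collection, and leave unsaid whether the 3 samples in each group are 3 mice, so that p-values measure the spread between these samples.

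PD1 is a receptor that T cells carry after activation, and binding of its ligand PD-L1 restrains them. Antibodies that block the receptor lift that restraint, and tumours that respond usually gain cytotoxic T cells and interferon gamma target genes. Regorafenib blocks several receptor kinases, those for VEGF and PDGF and the colony-stimulating factor 1 receptor among them, and thereby acts on vessels, fibroblasts and macrophages as well as on tumour cells. A bulk tumour library mixes the RNA of all these cells, so that fewer cells of a type and less RNA per cell cannot be told apart. The injected antibody is itself a protein and gives no reads.

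The libraries held 22815801, 27881867 and 27248310 counts in the combination, against 23109578, 22591835 and 27626855 counts with regorafenib alone, and 16974 of 55487 identifiers passed the filter on low counts and were tested. Levels are CPM (counts scaled to a library of fixed size) after TMM normalisation over all 12 libraries, and differences are log2 fold changes, combination over regorafenib. The 3 regorafenib libraries stood farther from each other than any other replicates did: the root mean square difference in log2 CPM between them was 0.750 to 0.762, against 0.544 to 0.675 within the combination and 0.390 to 0.403 within vehicle, and between combination and regorafenib it was 0.472 to 0.870. The 7 squamous tumour markers checked were present in every library, with Krt5, a basal keratin, at 6670, 5935 and 6245 CPM in the combination and 5893, 5515 and 6868 CPM with regorafenib alone. Skeletal muscle RNA varied by library, and Acta1, muscle actin, had 51.3, 61.7 and 180 CPM in the combination and 0, 140 and 134 CPM with regorafenib alone.

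No gene passed the test. At an adjusted p under 0.05 (edgeR quasi-likelihood test, Benjamini-Hochberg over all genes) 0 genes were higher and 0 were lower in the combination, which is 0% of those tested, and the smallest adjusted p was 0.402, for the immunoglobulin gene Ighg3. Without adjustment 659 genes (3.88%) had p under 0.05 and were higher, and 266 (1.57%) were lower. In 838 genes (4.94%) all 3 combination libraries lay above all 3 regorafenib libraries, and in 480 (2.83%) all 3 lay below. Of all genes, 159 (0.937%) had an unadjusted p under 0.05 with a difference of at least 2-fold. DESeq2 on the same 12 libraries called 4 genes higher (Ighg3, Ighg2b, Ighg2c and Ces2g) and 0 lower, with 591 higher and 373 lower at an unadjusted p under 0.05, and edgeR on the 6 libraries alone called 1, Ighg2c.

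Of the genes at an unadjusted p under 0.05, 71.2% were higher. That share was smaller in all 12 fits without 1 library, at 46.8% to 68.6%. It was 61.0%, 60.4% and 61.0% without vehicle 1, 2 and 3, libraries outside the comparison. The balance turned without regorafenib 2, where 547 were higher and 621 lower. There were 295 higher and 207 lower genes without combination 1, 258 and 190 without combination 2, 1204 and 723 without combination 3 and 1175 and 868 without regorafenib 3, and 425 lower without anti-PD1 1. The median gene had a difference of 0.00 with a standard error of 0.19 and a 95% interval of 0.41 to either side on the log2 scale. For 30.02% of the genes that interval still held a 2-fold difference in some direction, so the lack of calls sets no tight bound on them.

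**Figure D1:**
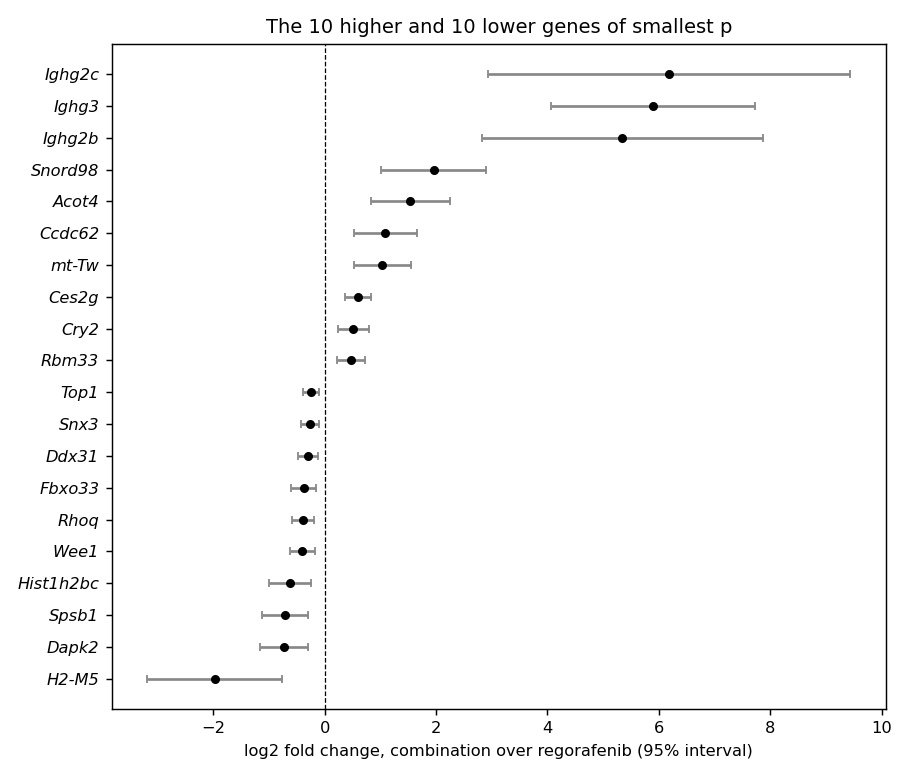
Log2 fold change, combination over regorafenib, of the 10 higher and 10 lower genes with the smallest p (points) with 95% intervals (bars), from 3 libraries a group. The 3 immunoglobulin genes lie farthest from 0, between 5.35 and 6.19, and no gene here passed the adjusted threshold.

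Genes for the constant regions of IgG had the largest differences described here. The 4 IgG constant regions, which encode the stems of the IgG subclasses that plasma cells secrete, lie together on chromosome 12, and in all 4 the 3 combination libraries were above the 3 regorafenib libraries. Ighg2c (GRCm38 chr12:113285325-113288932, minus strand) had 20.2, 21.2 and 23.0 CPM in the combination, against 0.338, 0.440 and 0.111 CPM with regorafenib alone. Its level was thus even among the combination tumours and near the bottom of the range in all 3 regorafenib tumours. The counts behind it were 458, 609 and 635 in the combination and 8, 10 and 3 with regorafenib.

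Ighg3 (chr12:113356224-113361232) had 2.21, 7.76 and 3.04 CPM in the combination, against 0.0846, 0.0879 and 0.0369 CPM with regorafenib alone, where it rested on 2, 2 and 1 counts. The ratio of its summed and scaled counts was 66.4, with an exact 95% interval of 28.2 to 206 that covers counting error only, and its log2 fold change of 5.89 ± 0.83 (SE) had an edgeR quasi-likelihood adjusted p of 0.402. For Ighg2c the same ratio was 75.4 (49.2 to 122), and its log2 fold change was 6.19 ± 1.47, at an adjusted p of 0.856 by the same test.

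Ighg2b and Ighg1 were uneven within the combination. Ighg2b had 134, 5.50 and 13.5 CPM in the combination and 1.69, 0.660 and 1.37 CPM with regorafenib alone, and Ighg1 had 183, 3.76 and 2.25 CPM against 0.634, 0.308 and 1.03 CPM. Combination 1 held most of both, and without it the log2 fold change was 2.92 for Ighg2b, against 5.35 with it, and 2.15 for Ighg1, against 6.54 with it. The groups still did not overlap. The subclasses are paralogs and the annotation follows another mouse strain than the C3H host, so the split of reads among the 4 genes is uncertain. Of the 50-base windows of their GENCODE transcripts, 0.393% (Ighg1), 1.58% (Ighg3), 4.15% (Ighg2b) and 5.49% (Ighg2c) occur in another of them. These windows compare annotated transcripts only, and how reads of the C3H host divide among the 4 genes was not tested.

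Igkc, the constant region of the kappa light chain, had 169, 36.9 and 63.0 CPM in the combination and 20.4, 5.67 and 2.84 CPM with regorafenib alone, with no overlap. Jchain, which joins IgA and IgM into polymers, had 11.05, 2.51 and 11.7 CPM against 6.00, 1.32 and 0.849 CPM, and Ighm, the IgM heavy chain, had 31.9, 17.2 and 30.3 CPM against 21.3, 18.3 and 6.79 CPM. Both overlapped between the groups. Igha, the IgA heavy chain, had 222, 205 and 1499 counts in the combination and 924, 337 and 165 counts with regorafenib. Combination 3 carried most of the combination's counts, and no direction can be read from the overlapping libraries. Ighd, the IgD heavy chain, had 10, 14 and 12 counts in the combination and 23, 27 and 5 counts with regorafenib, again with overlap, and its summed counts gave a ratio of 0.609 (0.389 to 0.944, counting error only).

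Variable segments, which each antibody-forming cell clone joins to its constant region, followed the IgG genes. Reads on heavy-chain variable segments summed to 52.5, 7.17 and 20.2 CPM in the combination and 7.82, 2.68 and 1.07 CPM with regorafenib alone, and those on kappa segments summed to 150, 22.1 and 44.3 CPM against 14.3, 4.05 and 2.62 CPM. In the heavy chain combination 2 lay below regorafenib 1, and in the kappa chain the groups did not overlap. In combination 1 a single heavy segment took 49.96% of the heavy-chain reads and a single kappa segment 48.6% of the kappa reads, while in combination 3 the largest took 22.0% and 8.25%. Of 218 annotated variable segments 17 were tested, and 9 of these were higher at an unadjusted p under 0.05 by edgeR's quasi-likelihood test. That is not comparable with the 3.88% of all genes, since segments passed the filter largely in libraries where they are high. Kappa segments with at least 10 counts numbered 10, 14 and 29 in the combination and 7, 0 and 2 with regorafenib. They numbered 7, 0 and 16 with anti-PD1 alone and 1, 1 and 2 with vehicle.

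Markers of the antibody-forming cells themselves were scarce and did not separate the groups. Of 20 genes on the list for plasma cells and constant regions 15 were tested. Of these, 5 (33.3%) had all 3 combination libraries on top, beside 4.94% of all genes. All 5 were constant regions (Ighg1, Ighg2b, Ighg2c, Ighg3 and Igkc). Ighg3 passed the filter on low counts only through the combination, with 50, 223 and 84 counts there against 0 to 7 elsewhere. The median over the 15 was 0.26, with 6 below 0. Leaving out 1 library moved that median to between -0.0084, without regorafenib 3, and 1.08, without regorafenib 1. Mzb1, a plasma cell chaperone of the endoplasmic reticulum, was too low to test, at 0.265, 0.0348 and 0 CPM in the combination and 0, 0.0440 and 0.0369 CPM with regorafenib. Ms4a1, which defines B cells, was below 0.2 CPM in all 6 libraries. Cd79b, part of the B cell receptor, had 0.840, 0.731 and 1.41 CPM in the combination and 0.634, 0.923 and 0.369 CPM with regorafenib, with overlap.

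The summed level of the IgG genes was 340, 38.2 and 41.8 CPM in the combination and 2.75, 1.495 and 2.55 CPM with regorafenib, and 14.7, 1.31 and 35.8 CPM with anti-PD1 alone and 3.69, 4.57 and 3.28 CPM with vehicle. Anti-PD1 3 was close to combination 2 and 3, and anti-PD1 2 was as low as the tumours given no antibody. The difference between the antibody's effect with and without regorafenib, tested as an interaction, was 3.94 ± 2.15 (SE) on the log2 scale for Ighg3 and 2.27 for Ighg2c, each with an edgeR quasi-likelihood adjusted p of 0.9998.

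**Figure D2:**
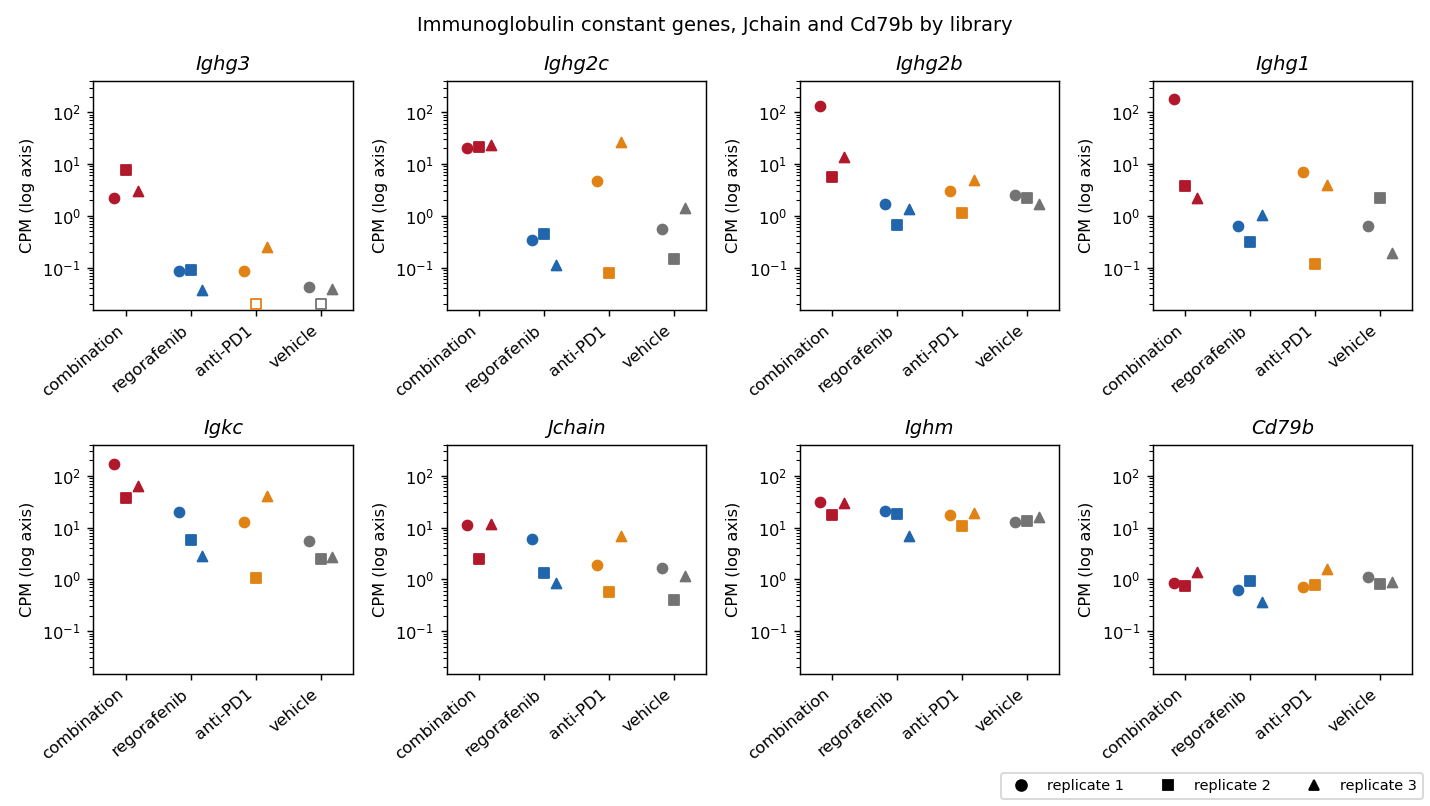
CPM on a log axis of the 4 IgG constant genes, Igkc, Jchain, Ighm and Cd79b in each of 12 libraries, with groups in the order combination, regorafenib, anti-PD1 and vehicle, symbols for replicates, and open symbols for a count of 0. The IgG genes and Igkc separate the 3 combination from the 3 regorafenib libraries, while Jchain, Ighm and Cd79b overlap.

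Noncoding genes were the broadest difference. GENCODE assigns each gene a class, and 5 classes not annotated as protein-coding, called noncoding here, were compared with protein-coding genes. They were TEC (transcripts to be experimentally checked), lincRNA (long intergenic RNA), antisense, sense intronic and processed transcript. These classes were looked at after their values were seen. Their 1465 tested genes had a median log2 fold change of 0.28, with 232 above and 17 below among those whose groups did not overlap, where the median of 14198 protein-coding genes was -0.02, with 513 above and 403 below. At an unadjusted p under 0.05, 177 noncoding genes were higher (12.1%) and 5 were lower (0.341%), where 429 protein-coding genes were higher (3.02%) and 240 were lower (1.69%). Over all genes these shares were 3.88% and 1.57%.

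TEC genes, at a median difference of 0.41 over 307 tested, had 69 above and 1 below, and the 48 sense intronic genes, at 0.42, had 7 above and 0 below. The median was 0.25 in 397 antisense genes (55 above, 12 below), 0.24 in 252 processed transcripts (45 above, 1 below) and 0.22 in 461 lincRNAs (56 above, 3 below). Processed pseudogenes, equally low in level, had -0.02, with 39 above and 51 below. The background over all genes was 4.94% above and 2.83% below.

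The mean log2 level of the 5 classes in each library, set against the mean of the regorafenib libraries, was 0.30, 0.35 and 0.14 in the combination and -0.11, 0.08 and 0.03 with regorafenib. All 3 combination libraries were higher, combination 3 least. In shares of all counts, TEC genes took 0.0779%, 0.0884% and 0.0641% in the combination and 0.0518%, 0.0572% and 0.0609% with regorafenib, against 0.0538%, 0.0385% and 0.0438% with anti-PD1 alone and 0.0421%, 0.0399% and 0.0408% with vehicle. The median difference of the 5 classes stayed between 0.20 and 0.36 when each of the 12 libraries was left out in turn.

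Protein-coding genes that were as low, with a mean under 1 CPM, numbered 1325 and had a median of 0.04. Of these 76 (5.74%) lay above and 19 (1.43%) below, beside 4.94% and 2.83% of all genes. Genes of the 5 classes had a median of 0.32 under 1 CPM and 0.25 at 1 CPM or more. By position, the 254 noncoding genes that overlap a protein-coding gene on the same strand had a median of 0.42. Of them 62 lay above and 0 below, where the shares of all genes were 4.94% and 2.83%. For 231 of these the overlapped coding gene was tested. The median of the coding genes' values, taken once per noncoding gene, was 0.00. The 575 noncoding genes that overlap a coding gene on the opposite strand only had 0.24, and the 636 that overlap none had 0.26. Within TEC genes the same-strand ones had 0.49, those on the opposite strand 0.33 and those that overlap none 0.37. Mitochondrial genes took 1.31%, 1.85% and 1.70% of the counts in the combination and 1.45%, 1.496% and 1.43% with regorafenib, with overlap.

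Long RNAs that stay in the nucleus were looked up by name after this was seen. Malat1, a nuclear speckle RNA, had 405, 306 and 218 CPM in the combination and 160, 248 and 242 CPM with regorafenib, and Neat1, the scaffold of paraspeckles, had 1504, 1051 and 959 CPM against 595, 1098 and 801 CPM. Both overlapped. Leng8, a coding gene whose product takes part in nuclear RNA retention, had 319, 311 and 252 CPM in the combination and 183, 242 and 202 CPM with regorafenib, and Rbm33, an RNA-binding protein, had 149, 154 and 125 CPM against 95.8, 103 and 109 CPM, both without overlap. Among 12 tested host genes of small nucleolar RNAs 3 lay above (25%) and 0 below, beside 4.94% and 2.83% of all genes. At an unadjusted p under 0.05, 1 of the 12 was higher (8.33%), beside 3.88% of all genes. Snhg17 had 98.5, 98.2 and 79.3 CPM in the combination and 66.7, 73.1 and 77.8 CPM with regorafenib.

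**Figure D3:**
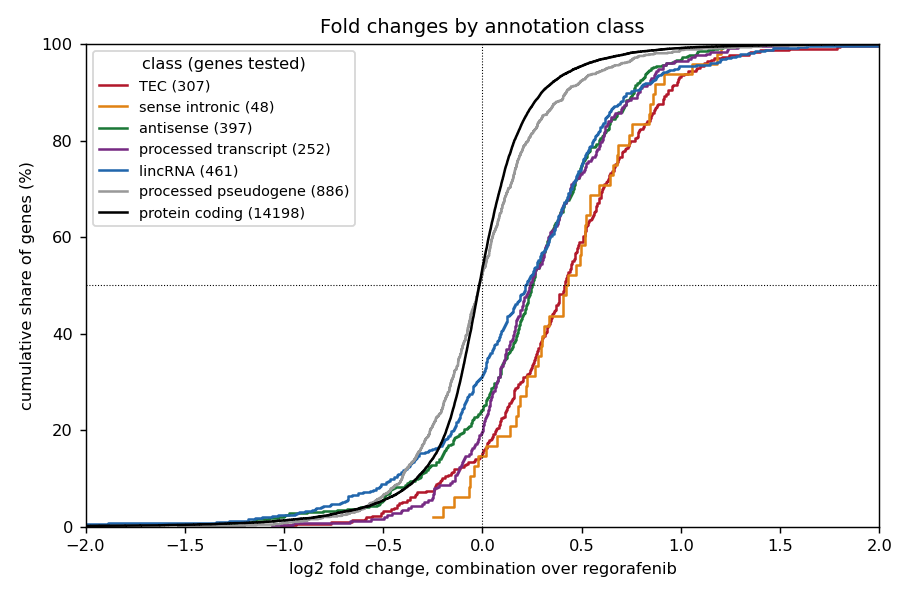
Cumulative share of tested genes (percent, y axis) by log2 fold change, combination over regorafenib (x axis, shown from -2 to 2), for 7 annotation classes, with the number of genes in brackets. The curves of the 5 noncoding classes cross 50% at 0.22 to 0.42, and those of protein-coding genes and processed pseudogenes at -0.02.

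A cluster of carboxylesterase genes on chromosome 8 held the protein-coding gene with the smallest p. Carboxylesterases of the Ces2 group hydrolyse ester and amide bonds in lipids and in many drugs. In 4 genes of the cluster, Ces2b, Ces2e, Ces2f and Ces2g, the combination libraries lay above the regorafenib libraries. The start regions of 3 of them are shown, and that of Ces2b was not compared. RefSeq gives, in GRCm38.p6 on the plus strand, chr8:104926010-104926309 for Ces2e, chr8:104947106-104947405 for Ces2f and chr8:104961468-104961767 for Ces2g, each with 250 bases before and 50 after the start. Capitals mark the longest run of letters common to all 3 windows, 9 bases long.
Ces2e: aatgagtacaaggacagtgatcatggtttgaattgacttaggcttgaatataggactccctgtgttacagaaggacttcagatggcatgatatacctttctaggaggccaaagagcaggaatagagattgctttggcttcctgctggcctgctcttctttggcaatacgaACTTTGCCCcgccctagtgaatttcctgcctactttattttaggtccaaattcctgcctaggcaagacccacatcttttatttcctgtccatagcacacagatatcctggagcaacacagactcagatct
Ces2f: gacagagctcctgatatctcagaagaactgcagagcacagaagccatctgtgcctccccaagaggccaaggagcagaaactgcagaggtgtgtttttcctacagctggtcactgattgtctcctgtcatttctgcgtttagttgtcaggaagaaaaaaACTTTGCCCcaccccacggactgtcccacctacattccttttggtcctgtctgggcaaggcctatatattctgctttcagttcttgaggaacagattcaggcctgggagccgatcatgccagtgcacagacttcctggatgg
Ces2g: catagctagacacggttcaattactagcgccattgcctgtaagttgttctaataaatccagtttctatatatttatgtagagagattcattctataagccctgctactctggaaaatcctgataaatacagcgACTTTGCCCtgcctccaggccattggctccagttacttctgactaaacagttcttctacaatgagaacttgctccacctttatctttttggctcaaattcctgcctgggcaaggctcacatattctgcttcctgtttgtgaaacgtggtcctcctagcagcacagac

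The common run ACTTTGCCC begins 80, 92 and 117 bases before the starts of Ces2e, Ces2f and Ces2g and occurs, on either strand, in 86 of 32851 mouse promoter windows of the same length (0.262%). Aligned end to end, the windows share 48.6% (Ces2e and Ces2f), 50.8% (Ces2e and Ces2g) and 40.3% (Ces2f and Ces2g) of their columns. The run was found by comparing these windows only, and says nothing of which factor binds there. Windows of Ces2b, which also separated, and of Ces2c, which did not, were left out, so the run cannot be tied to the differences.

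Ces2g (chr8:104961718-104969537, plus strand) had 343, 330 and 276 CPM in the combination and 181, 220 and 228 CPM with regorafenib alone, a log2 fold change of 0.59 ± 0.11 (SE) with an edgeR quasi-likelihood adjusted p of 0.856 and a DESeq2 adjusted p of 0.00130. Over the 21 alternatives its adjusted p ran from 0.00130 to 1. Every combination library was above every regorafenib library. Without regorafenib the groups overlapped, and Ces2g had 160, 159 and 155 CPM with anti-PD1 and 165, 153 and 169 CPM with vehicle.

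Ces2f had 325, 329 and 245 CPM in the combination and 146, 234 and 219 CPM with regorafenib. Ces2e had 75.3, 82.1 and 80.3 CPM against 60.6, 43.5 and 64.8 CPM, and Ces2b had 11.8, 10.96 and 14.8 CPM against 7.65, 8.88 and 10.6 CPM. In each of these 3 genes the groups did not overlap, while in Ces2c, at 0.884, 0.452 and 0.507 CPM in the combination and 0.211, 0.528 and 0.332 CPM with regorafenib, they did. The genes other than Ces2g and Ces2e were looked up after these values were seen, and they are paralogs among which reads can be shared.

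As an interaction, the antibody's difference on regorafenib less that without it, Ces2e had a log2 value of 0.91 and Ces2g of 0.63, with unadjusted p of 0.000678 and 0.00156 by edgeR's quasi-likelihood test. These were the 2 smallest on the higher side, and no gene passed in the interaction, with a smallest adjusted p of 0.9998, 449 genes (2.65%) at an unadjusted p under 0.05, and 0 calls by DESeq2, which had 484 genes at that p. Ces2e was lower with anti-PD1 than with vehicle, at 35.7, 44.0 and 38.5 CPM against 55.0, 48.2 and 54.6 CPM.

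**Figure D4:**
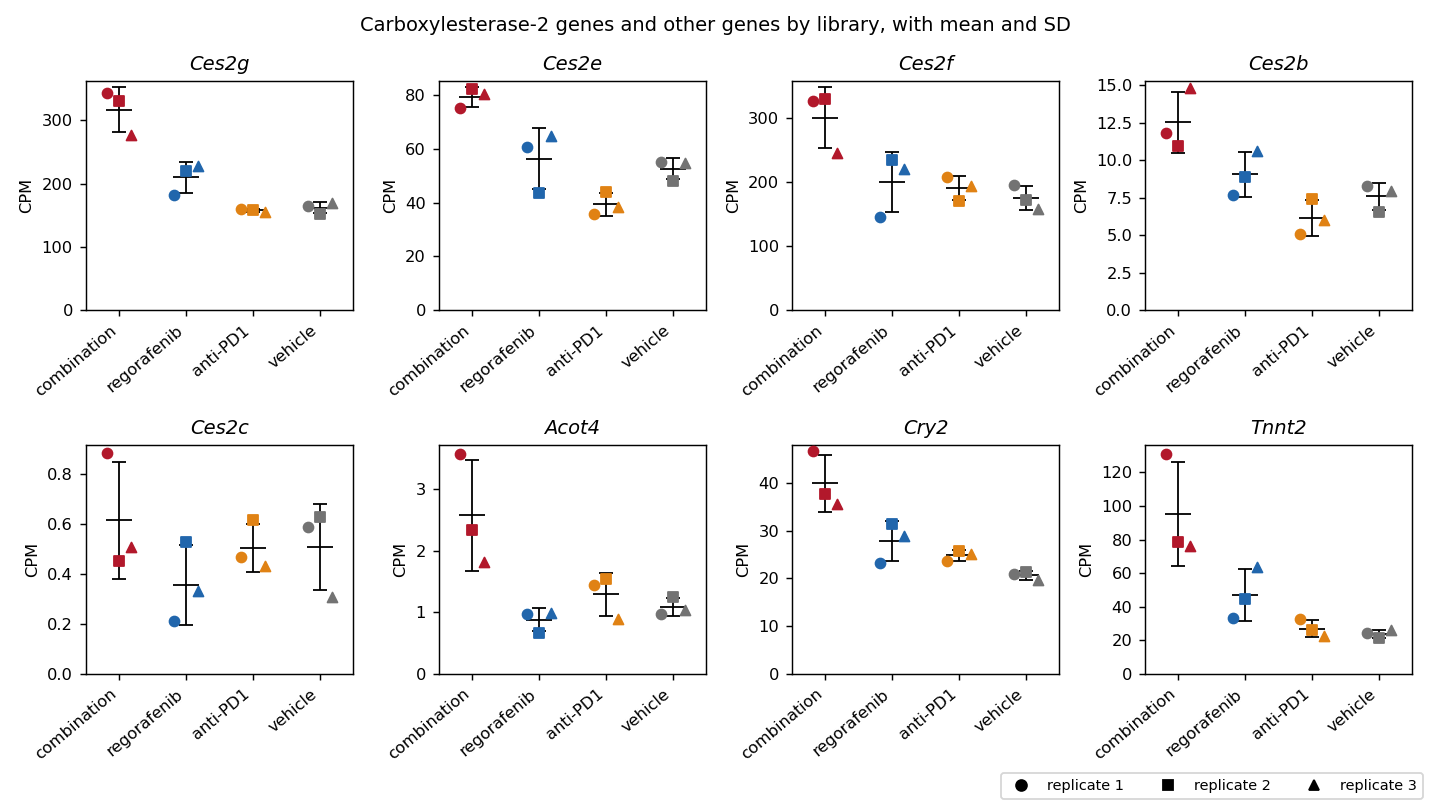
CPM of 5 Ces2 genes and of Acot4, Cry2 and Tnnt2 in each of 12 libraries, with groups in the order combination, regorafenib, anti-PD1 and vehicle, symbols for replicates, and the mean ± SD of 3 libraries in black. Ces2c has overlapping groups, and in the 7 other genes the 3 combination libraries lie above the 3 regorafenib libraries.

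The rest of the 10 higher genes with the smallest p were mixed in kind. Acot4, a thioesterase of peroxisomes, had 3.58, 2.33 and 1.81 CPM in the combination and 0.973, 0.660 and 0.997 CPM with regorafenib, a log2 fold change of 1.54 ± 0.32. Cry2, a repressor of the circadian clock, had 46.7, 37.7 and 35.5 CPM in the combination and 23.3, 31.4 and 28.9 CPM with regorafenib. Per3, another clock gene, looked up afterwards, had 44.4, 43.0 and 24.7 CPM against 24.7, 23.7 and 23.8 CPM, so that its difference came from combination 1 and 2.

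Ccdc62 had 3.93, 3.13 and 2.57 CPM in the combination and 1.23, 1.89 and 1.403 CPM with regorafenib. Snord98, a small nucleolar RNA, stayed under 1 CPM, with 0.398, 0.522 and 0.398 CPM against 0.0846, 0.176 and 0.0738 CPM, and the mitochondrial tRNA gene mt-Tw had 0.840, 0.940 and 0.833 CPM against 0.423, 0.440 and 0.406 CPM. Both are short RNAs that poly(A) selection is not built to capture. Acot4 and Cry2 share 615 and 295 exon bases with genes on the opposite strand, and Ccdc62 shares 462 with a gene on its own strand.

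Tnnt2, cardiac troponin T, looked up afterwards for its size of effect, had 131, 78.6 and 76.1 CPM in the combination and 33.4, 44.3 and 63.8 CPM with regorafenib, a log2 fold change of 1.01 ± 0.26 with an edgeR quasi-likelihood adjusted p of 0.856. Acta1, the muscle actin, was at 0 CPM in regorafenib 1, where Tnnt2 had 33.4 CPM, its lowest value in the combination and regorafenib libraries. Whether muscle adds to the Tnnt2 reads was not tested. Tumours without regorafenib held less Tnnt2, at 32.5, 25.8 and 22.5 CPM with anti-PD1 and 24.0, 21.2 and 26.2 CPM with vehicle.

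The 10 lower genes with the smallest p had small differences, with 1 exception. Wee1, the kinase that holds back entry into mitosis, had 46.4, 42.9 and 47.6 CPM in the combination and 69.1, 55.9 and 55.6 CPM with regorafenib, a log2 fold change of -0.40 ± 0.10. Top1, the DNA topoisomerase I, had 80.7, 76.0 and 78.1 CPM against 94.9, 90.1 and 93.0 CPM. Rhoq, a small GTPase, had 42.9, 45.4 and 44.4 CPM against 63.3, 57.8 and 52.6 CPM, and shares 312 of its 4151 exon bases with Pigf on the opposite strand. In all 3 genes the combination libraries were close to each other and below the lowest regorafenib library.

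Dapk2, a death-associated protein kinase, had 19.5, 14.8 and 26.3 CPM in the combination and 32.6, 40.3 and 27.8 CPM with regorafenib, and Spsb1, a substrate adaptor of a ubiquitin ligase, had 25.9, 21.8 and 25.1 CPM against 42.1, 48.1 and 28.9 CPM. In both, regorafenib 3 was close to the combination. The helicase gene Ddx31, the histone gene Hist1h2bc, the F-box gene Fbxo33 and the sorting nexin Snx3 had log2 fold changes of -0.30, -0.62, -0.37 and -0.26, again with no overlap. H2-M5, a nonclassical MHC class I gene, was the exception in size, with 0.0884, 0.209 and 0.254 CPM in the combination and 0.888, 1.01 and 0.369 CPM with regorafenib, a log2 fold change of -1.97 ± 0.55. By edgeR's quasi-likelihood test all 10 had an adjusted p of 0.856.

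The target of the antibody and its partners did not separate the groups. Pdcd1, which encodes PD1, had 5.88, 8.005 and 16.9 CPM in the combination and 14.9, 14.4 and 8.86 CPM with regorafenib, a log2 fold change of -0.31 ± 0.43. Cd274, which encodes PD-L1, had 137, 155 and 178 CPM against 116, 181 and 86.9 CPM (0.29 ± 0.38), and Pdcd1lg2, the other ligand, had 1.28, 1.74 and 6.16 CPM against 10.2, 6.77 and 0.960 CPM. Combination 3, regorafenib 1 and regorafenib 2 held the high values of Pdcd1 and Pdcd1lg2, and combination 1 and regorafenib 3 were low in both.

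The same order of libraries ran through T cell genes. Of 20 T cell receptor genes 20 had a log2 fold change below 0, with a median of -0.29, but 0 had an unadjusted p under 0.05 by edgeR's quasi-likelihood test and in 0 did the groups separate. The mean level of the list, against the regorafenib mean, was -1.10, -0.28 and 0.49 in the combination and 0.39, 0.51 and -0.90 with regorafenib. Without combination 1 the median was 0.02, and the sign turned. Cd8a, the co-receptor of cytotoxic T cells, had 12.1, 22.5 and 38.1 CPM in the combination and 31.6, 35.1 and 15.7 CPM with regorafenib, a log2 fold change of -0.18 with a 95% interval of -1.07 to 0.72. Cd4, the co-receptor of helper cells, had 17.3, 20.0 and 53.3 CPM against 40.6, 56.4 and 17.98 CPM.

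Cytotoxic effector genes, with 18 of 20 tested, had a median of -0.38, with 2 above 0 and 16 below and 0 at an unadjusted p under 0.05. Gzmb, the protease of cytotoxic granules, had 16.8, 13.7 and 35.4 CPM in the combination and 64.2, 57.0 and 13.4 CPM with regorafenib, a log2 fold change of -1.03 with a 95% interval of -2.38 to 0.33. Prf1, which forms pores for granzymes, had 5.57, 8.94 and 12.6 CPM against 11.2, 9.67 and 7.31 CPM, and Ifng, interferon gamma itself, had 0.707, 1.04 and 1.99 CPM against 1.82, 1.45 and 0.591 CPM. All 14 tested NK cell genes were below 0, with a median of -0.40 and 0 at an unadjusted p under 0.05. The sign of Cd8a, Cd4, Ifng and Prf1 turned when Y-linked counts were a covariate or when some libraries were left out.

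Of 20 checkpoint genes 1 was higher at an unadjusted p under 0.05, a share of 5% beside 3.88% of all genes. It was Pvr, a tumour-cell ligand of TIGIT, with 28.3, 24.0 and 20.4 CPM in the combination and 17.5, 18.1 and 23.1 CPM with regorafenib. Lag3, Havcr2, Tigit and Ctla4, inhibitory receptors of T cells, had log2 fold changes of -0.16, -0.45, -0.11 and 0.08, with 95% intervals that all held 0, and those of Lag3, Tigit and Ctla4 turned in some alternatives. The regulatory T cell list had a median of -0.09. Foxp3, its defining factor, had 3.18, 6.33 and 11.6 CPM in the combination and 10.3, 8.13 and 3.77 CPM with regorafenib. Ikzf2, a factor of regulatory T cells that other cells also carry, was the 1 member of 12 that separated, beside 4.94% of all genes that lay above, with 49.3, 56.5 and 46.4 CPM against 39.4, 38.8 and 41.8 CPM.

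Without regorafenib the T cell and NK cell lists had medians above 0, and the 3 anti-PD1 libraries lay far apart. Anti-PD1 against vehicle had 0 genes at an adjusted p under 0.05 (edgeR quasi-likelihood test), and 561 higher (3.31%) and 317 lower (1.87%) at an unadjusted p under 0.05. The median over T cell receptor genes was 0.70 for anti-PD1 less vehicle, against -0.29 for the combination less regorafenib, and it was 0.64 against -0.38 in cytotoxic genes, 0.61 against -0.29 in checkpoint genes and 0.78 against -0.40 in NK cell genes. The mean log2 level of the T cell receptor genes, as a difference from the regorafenib mean, was -0.24, -0.82 and 0.58 with anti-PD1 and -0.60, -0.77 and -0.88 with vehicle. Anti-PD1 2 lay within the range of the vehicle libraries, and anti-PD1 3 was the highest of the 6. The interaction had a median of -0.93 in T cell receptor genes, where 2 of 20 had an unadjusted p under 0.05, beside 2.65% of all genes. Pdcd1lg2 had an interaction of -3.42 (unadjusted p 0.0228), Gzmb of -2.23 (0.0282) and Pdcd1 of -1.38 (0.0457), and none passed an adjusted p of 0.05 by edgeR's quasi-likelihood test. The 2 comparisons share no library. Over all tested genes their log2 fold changes correlated with r = 0.21, a description across genes that are not independent, and 61.6% had the same sign.

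Genes of the interferon response did not separate the groups. The 26 genes of the interferon gamma list had 0.11 as their median, 15 above 0 and 11 below. Cxcl9 and Cxcl10, the chemokines that interferon gamma induces to draw T cells, had 56.6, 119 and 180 CPM and 70.6, 118 and 215 CPM in the combination, against 142, 204 and 63.5 CPM and 249, 179 and 81.6 CPM with regorafenib. In the type I interferon list 23 of 25 genes were below 0, with a median of -0.31. At an unadjusted p under 0.05, 1 was lower (4%), beside 1.57% of all genes. It was Ifi27l2a, with 302, 269 and 386 CPM in the combination and 439, 386 and 404 CPM with regorafenib. Class I and class II presentation had medians of -0.07 and -0.15, with 0 members at that p.

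Macrophage genes, with 20 of 24 below 0 and a median of -0.31, were again lowest in combination 1 and regorafenib 3. Csf1r, the receptor of colony-stimulating factor 1, had 47.7, 79.9 and 124 CPM in the combination and 122, 151 and 58.2 CPM with regorafenib, and Arg1, arginase 1 of suppressive myeloid cells, had 2.12, 1.91 and 6.09 CPM against 21.7, 3.25 and 2.66 CPM, its difference of -1.44 resting on regorafenib 1 (0.19 without it). Dendritic cell genes had a median of -0.35. The level of 4 Y-linked genes, which the male host cells carry, was 18.3, 21.6 and 34.6 CPM in the combination and 32.1, 41.7 and 18.1 CPM with regorafenib, lowest in the libraries where T cell and macrophage genes were lowest. With it as a covariate the median of the T cell receptor list was 0.03.

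Neutrophil genes were mostly above 0, with 14 of 16 above 0, a median of 0.32 and 3 with no overlap, beside 4.94% of all genes. Il1b, interleukin 1 beta, had 29.7, 22.4 and 25.6 CPM in the combination and 20.0, 20.2 and 17.8 CPM with regorafenib. Mmp9, a protease of neutrophil granules and tumour cells, had 275, 60.7 and 110 CPM against 70.1, 64.4 and 87.7 CPM, and its log2 fold change of 1.00 was 0.19 without combination 1. By library the mean level of the list was 0.48, 0.30 and 0.47 in the combination and 0.63, -0.35 and -0.28 with regorafenib, so regorafenib 1 was the highest of all. Among 30 chemokine ligands 1 was higher at an unadjusted p under 0.05 (3.33%), near the 3.88% of all genes. It was Cx3cl1, with 151, 164 and 110 CPM in the combination and 83.6, 90.2 and 123 CPM with regorafenib.

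**Figure D5:**
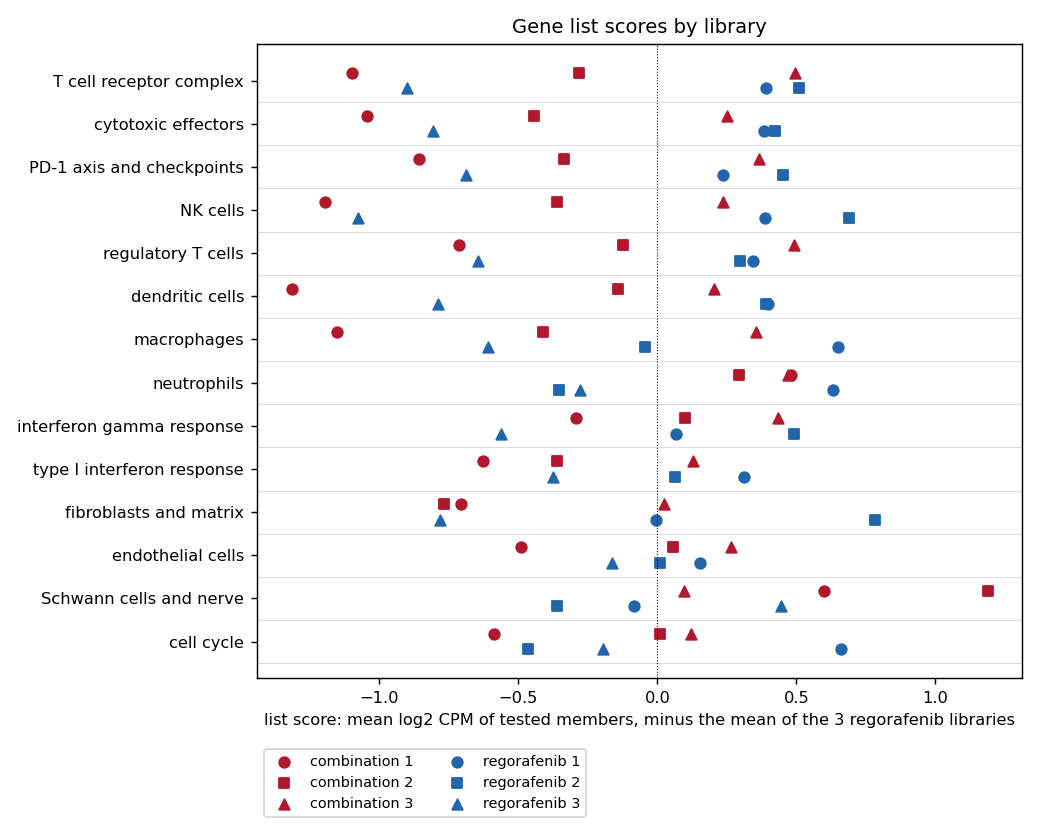
Mean log2 CPM of the tested members of 14 gene lists in each combination (upper row of a list) and regorafenib library (lower row), less the mean of the 3 regorafenib libraries. Combination 1 and regorafenib 3 are lowest in the T cell, NK, dendritic and macrophage lists, and in every list shown the groups overlap.

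Stromal genes followed single libraries too. Fibroblast and matrix genes had a median of -0.61, with 21 of 25 below 0. The median was -0.094 without regorafenib 2, -1.01 without regorafenib 3 and -1.04 without combination 3. At an unadjusted p under 0.05, 1 of the 25 was lower (4%), beside 1.57% of all genes, and 0 were higher. It was Postn, a matrix protein of activated fibroblasts, with 608, 663 and 692 CPM in the combination and 945, 1365 and 689 CPM with regorafenib. Sparc, a collagen-binding matrix protein, had 620, 752 and 1199 CPM against 1444, 2809 and 780 CPM. Regorafenib 2 held the most collagen RNA, and Col1a1, a collagen I chain, had 2278, 1690 and 4966 CPM in the combination and 4256, 12386 and 2003 CPM with regorafenib. Endothelial genes had a median of -0.11 and pericyte genes of 0.01, and Kdr, the main VEGF receptor, had 6.81, 9.19 and 15.9 CPM in the combination and 15.9, 18.8 and 7.64 CPM with regorafenib. Prox1, which specifies lymphatic vessels, had 1.41, 1.15 and 1.20 CPM against 0.423, 0.396 and 1.07 CPM, without overlap.

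All 8 Schwann cell genes were above 0, with a median of 0.42. Sox10, a factor of Schwann cells, had 0.354, 0.487 and 0.398 CPM in the combination and 0.127, 0.0440 and 0.111 CPM with regorafenib, without overlap. As a list the groups overlapped, since regorafenib 3 was above combination 3.

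In the tumour cells' own programmes little separated. Trp63, the basal squamous factor, had 541, 394 and 412 CPM in the combination and 334, 459 and 512 CPM with regorafenib, and Mki67, a mark of cycling cells, had 245, 405 and 397 CPM against 515, 241 and 301 CPM. The basal keratinocyte list had a median of 0.05. The cell cycle list had -0.22, with 23 of 24 below 0 and 0 at an unadjusted p under 0.05, and the hypoxia list 0.16, with 20 of 23 above 0 and 0 at that p. Both medians turned when 1 library was left out: the cell cycle median was 0.20 without regorafenib 1, and the hypoxia median was -0.045 without combination 1. In the cornified envelope list Lor, loricrin, had 1.33, 0.626 and 1.30 CPM in the combination and 2.79, 8.49 and 1.33 CPM with regorafenib, and Krt10, a keratin of suprabasal cells, had 0.398, 0.522 and 0.362 CPM against 0.507, 27.1 and 0.517 CPM. Krt10 rests on regorafenib 2, without which its log2 fold change was -0.27, against -4.43 with it.

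In metabolism and stress, Srebf1, the factor of lipid synthesis genes, had 190, 216 and 191 CPM in the combination and 174, 159 and 166 CPM with regorafenib, while the list of sterol and fatty acid synthesis had a median of -0.06 over 26 genes. Adrb3, the beta-3 adrenergic receptor of fat cells, had 8.66, 11.9 and 6.99 CPM against 3.97, 5.94 and 6.76 CPM. The adipocyte median was -0.55, and it ran from -1.09 without combination 2 to 0.21 without regorafenib 1. Among 14 genes of heat shock and tissue handling, Hsp90aa1, the inducible HSP90, had 263, 226 and 305 CPM in the combination and 377, 326 and 319 CPM with regorafenib, and Hsph1, a chaperone of the HSP110 family, had 47.0, 56.5 and 72.8 CPM against 109, 99.9 and 70.0 CPM. The median of that list was -0.13. Without overlap, 1 member lay above and 1 below (7.14% each), beside 4.94% and 2.83% of all genes. At an unadjusted p under 0.05 by edgeR's quasi-likelihood test 2 members were lower (14.3%), beside 1.57% of all genes, and 0 were higher.

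In the interaction, the lower side was led by Rnase1, a secreted ribonuclease, with 2.34, 2.65 and 2.32 CPM in the combination and 2.71, 4.18 and 5.65 CPM with regorafenib, against 6.07, 2.76 and 5.93 CPM with anti-PD1 and 2.31, 1.48 and 0.810 CPM with vehicle. Rnf125, Fbxo33 and P2ry1 followed with interactions of -1.15, -0.56 and -0.57, and on the higher side Sox10 and the leukotriene receptor gene Ltb4r1 followed the Ces2 genes with 5.54 and 0.55. Sox10 was at 0 in 2 of 3 anti-PD1 libraries, so that its value depends on the prior count. None of these passed an adjusted p under 0.05 by edgeR's quasi-likelihood test.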

How the data were processed

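RNA was measured with stranded, poly(A)-selected libraries in 12 tumour samples, 3 in each of 4 groups. The authors deposited raw read counts per Ensembl gene in 1 table of 55487 identifiers and 12 columns. The submitters' processing notes name cutadapt 2.4, STAR 2.7.2a and GRCm38; how reads were counted, on which strand and against which annotation is not given in the sources used here, so reads of a gene and an overlapping partner may not be told apart. Symbols, classes and coordinates came from GENCODE M21 (55227 identifiers matched), promoter sequences from RefSeq in GRCm38.p6.

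Genes were filtered with filterByExpr (minimum count 10, minimum total 15), which kept 99.9% of the counts, scaled with TMM over all 12 libraries and tested two-sided by edgeR 4.0.16 (R 4.3.3) quasi-likelihood F tests. The fit was robust, took 1 mean for each of 4 groups and left 8 residual degrees of freedom, and its common biological coefficient of variation was 0.227. P-values were adjusted by Benjamini-Hochberg, and a gene passed at 0.05. Standard errors were derived from the test, as the absolute log2 fold change divided by the square root of its F statistic. The 95% intervals are symmetric t intervals built on them. Both are approximate, most of all for genes with few counts such as Ighg3. The procedure was tested on simulated data. List levels are means of log2 CPM with a prior count of 2. Ratios of summed counts have exact binomial 95% intervals.

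The text names every gene that passed (0), the 10 higher and 10 lower of smallest p, 25 panel genes, up to 4 genes of smallest p in each list described, and the 4 of smallest p in each direction of the interaction. Predicted names, pseudogenes and variable segments were counted only. The comparison, the panel and the 39 lists were chosen with earlier results of these data known, and 5 list genes were not found by symbol. Alternatives were DESeq2 1.42.0, limma 3.58.1 voom with sample weights, RLE factors, other filters, no robust estimation, the replicate number as a block, only 6 libraries, a Y-linked covariate and each library left out in turn.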

Additional observations from a re-analysis of the deposited data

How the results depend on the processing

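In combination against regorafenib, the counts of 0 genes higher and 0 lower at an adjusted p under 0.05 became 4 higher with DESeq2 and 1 higher with only the 6 libraries compared, and were 0 under RLE factors, no filter, a filter of 1 CPM, no robust estimation, the replicate block, the Y-linked covariate, limma voom and in all 12 fits without 1 library (0 to 0). Of 85 named genes 70 kept 1 direction in all 21 alternatives. With the replicate block Ctla4 was at -0.0064. With the Y-linked covariate Lag3 was at 0.075, Tigit 0.13, Cd8a 0.028, Cd4 0.023, Foxp3 0.20, Ifng 0.26, Prf1 0.064, Cxcl9 0.15, Trp63 -0.0019 and Mki67 0.0098, and with limma voom Tcf7 was at 0.10 and Mki67 at 0.12. The cause was not tested. Without 1 library, the log2 fold change ran from -2.19 to 0.19 for Arg1, -1.04 to 0.025 for Cd4, -0.66 to 0.13 for Cd8a, -0.47 to 0.43 for Ctla4, -0.85 to 0.047 for Cxcl10, -0.63 to 0.19 for Cxcl9, -0.63 to 0.27 for Foxp3, -0.54 to 0.31 for Ifng, -0.89 to 0.12 for Lag3, -0.25 to 0.36 for Mki67, -0.37 to 0.19 for Prf1, -0.27 to 0.22 for Tcf7, -0.65 to 0.25 for Tigit, -0.96 to 0.0067 for Tox and -0.12 to 0.17 for Trp63.

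At an unadjusted p under 0.05 the replicate block gave 420 higher and 164 lower genes, and the 6 libraries alone 278 and 106. The interaction had 269 genes at that p with the replicate block, 678 with no filter, 813 with the Y-linked covariate and 287 to 878 without 1 library, and 0 at an adjusted p in every fit. Deviations of same-numbered combination and regorafenib libraries from their group means correlated at -0.31, -0.39 and -0.60. Deviations within a group of 3 sum to 0, so these values are tied to each other. They cannot decide whether the numbers pair the samples, and the labels do not say. The median of the 5 noncoding classes, an alternative added after seeing the data, lay between 0.25 and 0.31 under the 9 settings that keep all libraries of both groups. With 1 CPM as the filter the median of the plasma cell and constant region list was 1.21, over fewer genes. Low genes such as Ighg3 and Sox10 are limited by counts of 0 to 3 in some libraries.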
